A study of Mus musculus with 10 samples.

Results

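The transcripts described here are those of 36 very long genes of the nervous system, chosen by name from the 54838 genes of the count table, and all 36 were found. They encode adhesion molecules, synaptic scaffolds, receptors and signaling proteins of neurons, and most are known from brain tissue and not from lymphocytes. They were measured in group 2 innate lymphoid cells (ILC2), lymphocytes without antigen receptors that secrete type 2 cytokines, sorted from lungs of C57BL/6 mice with lung inflammation raised by papain, a protease allergen. The sort took lineage-negative, CD90.2-positive cells, with or without ST2 and KLRG1. The samples were 5 libraries of c-Maf knockout cells (KO) and 5 of wild-type cells (WT), sequenced from total RNA, and cohoused littermates were used. The labels name no further allele, Cre line, age or dose of papain, and they do not state that libraries came from different mice, so the spread behind each p-value is that of libraries and may be technical. Within each genotype the libraries are numbered by order of deposit, and equal numbers do not pair KO with WT. The identification numbers of the KO libraries in the labels all lie above those of the WT libraries, so genotype and this order cannot be told apart.

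A gene of this kind is nearly all intron. Its exons are spliced from a primary transcript that can exceed the mature messenger RNA in length many times over, and a total RNA library can hold reads of unspliced RNA as well as of messenger RNA. In neurons such genes are known for building contacts: IgLON proteins, teneurins, neurexin-like proteins and receptor phosphatases sit in the membrane and bind partners on the neighboring cell, while scaffolds such as Dlg2 and Magi2 hold receptors in place below it.

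KO libraries held 3620002 to 9867580 counts and WT libraries 21400938 to 24489987, so every KO library held fewer counts than any WT library. The scaling factors of the trimmed mean of M-values (TMM) were 0.1803 to 0.9276 in KO and 1.462 to 1.908 in WT. Maf, the targeted gene, had 0, 0, 0, 108 and 0 counts in KO libraries 1 to 5, and 3252, 3832, 1412, 1696 and 2727 in WT libraries 1 to 5. Its transcripts were thus seen in 1 KO library. Maf did not pass edgeR's test described further on (log2 fold change -4.34, adjusted p = 0.141), and it passed without KO library 4 (adjusted p = 0.00525, edgeR). The 12 ILC2 markers checked had over 3 counts in 55 of 60 gene and library pairs in KO and in 60 of 60 in WT. In KO library 1, 18.96% of the counts came from globin genes, against 0.01069 to 0.07484% in the other KO libraries. Genes with any count numbered 4052 to 7660 in KO libraries and 10577 to 12744 in WT libraries, and mitochondrial genes took 9.725 to 33.94% of KO counts and 32.26 to 45.33% of WT counts. Across all genes with any count, the Spearman rho of a pair of libraries was 0.345 to 0.464 within KO and 0.808 to 0.875 within WT.

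The 36 genes together made up a larger share of every KO library than of any WT library. Their summed level was 209.2, 1673, 5239, 861.1 and 7937 counts per 1000000 of library size (CPM) in KO libraries 1 to 5, against 72.33, 182.4, 31.87, 43.03 and 120.7 CPM in WT libraries 1 to 5. The groups did not overlap, but KO library 1 lay close to WT library 2, and KO libraries 3 and 5 stood far above the rest. The mean was 3184 ± 3292 CPM in KO and 90.07 ± 62 CPM in WT (SD, n = 5 each), so the spread among KO libraries was as large as their mean. Without KO library 5 the KO mean was 1995 CPM, and without KO libraries 3 and 5 it was 914.3 CPM. With TMM scaling the means were 4691 CPM in KO and 51.48 CPM in WT. The number of genes detected and the mitochondrial share, given above, were lower in KO as groups, and their part in this level was not tested. No test was made of this sum, because the genes were chosen with earlier results of these data known. In bulk libraries, fewer ILC2, less RNA per cell and a different mixture of RNA cannot be told apart.

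**Figure D1:**
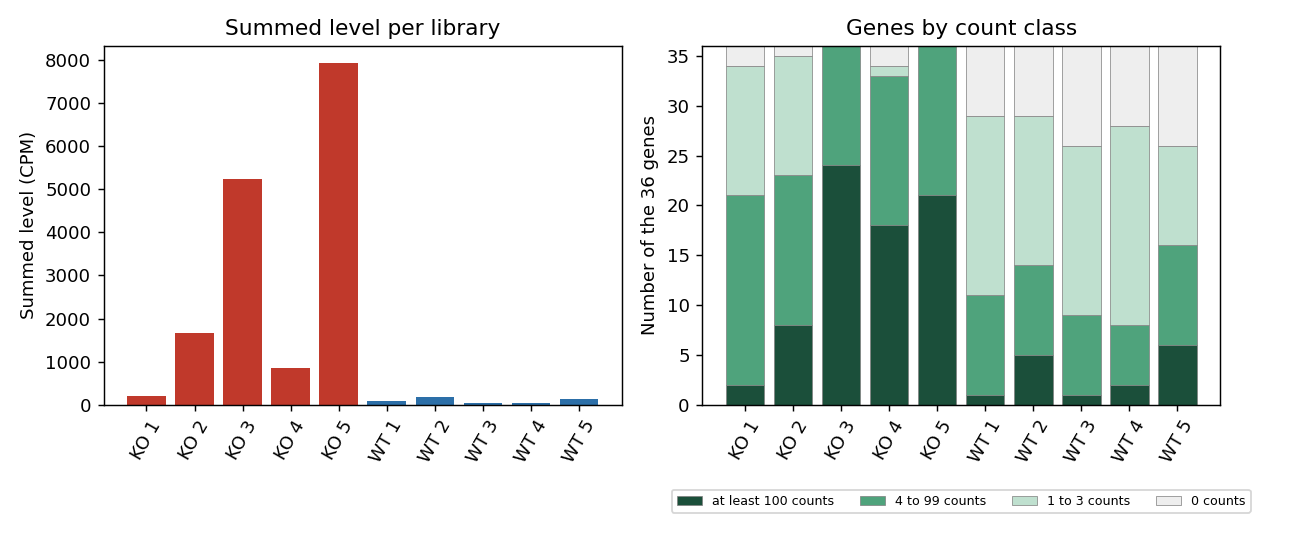
Left, the summed level of the 36 genes in CPM of library size for each KO (red) and WT (blue) library. Right, the number of the 36 genes with at least 100, 4 to 99, 1 to 3 or 0 counts in each library. KO libraries 3 and 5 had 24 and 21 genes at 100 counts or more, and WT libraries 1 to 6.

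The KO libraries held large counts of many of the genes, whereas WT libraries held a few counts of most. Of 180 gene and library pairs in KO, 73 were at 100 counts or more, 26 of them at 1000 or more, and 5 were at 0. In WT, 15 of 180 pairs were at 100 or more, 3 at 1000 or more, 80 at 1 to 3 counts and 42 at 0. The median pair had 51 counts in KO and 2 counts in WT, although WT libraries were deeper. The number of genes with over 3 counts was 21, 23, 36, 33 and 36 in KO libraries 1 to 5, against 11, 14, 9, 8 and 16 in WT libraries 1 to 5. With every library thinned to the smallest total of 3620002 counts, it was 17, 17, 35, 29 and 36 in KO and 4, 9, 3, 5 and 8 in WT. Of all genes with any count, 18.7% of pairs in KO and 54.4% in WT had over 3 counts. At full depth the table as a whole therefore ran in the other direction. These 2 shares were not taken after thinning, and the part of the greater WT depth in them was not tested.

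These genes span 410.1 kb (Kif26b) to 2271 kb (Ptprd) from start to end, with a median of 1135 kb, in the GENCODE M21 annotation of GRCm38. Their exons cover 3.627 to 23.77 kb, which is 0.288 to 3.58% of the span. Rbfox1 has the smallest exonic share and Kif26b the largest. Inside the spans lie 252 other annotated genes, and not 1 of them had a count in any of the 10 libraries. For independent genes this would allow a share of up to 1.19% (3 of 252). The nested genes lie in 36 hosts and were counted in the same way, so they are not independent and the limit may not hold. Of the 252 genes, 240 lie within introns of the host and touch none of its exons, 149 on the strand of the host and 91 on the opposite strand. The nested genes include 4 that code for proteins: Lrrtm1, a synaptic adhesion protein, inside Ctnna2, Flrt3, an adhesion protein of axon guidance, inside Macrod2, Bend5 inside Agbl4 and Hmgb4 inside Csmd2. Among genes of the same annotation classes that overlap no other gene, 36.8% of 26275 had at least 1 count. This pool does not have the class mix of the nested genes, so its share is no expectation for them. Class by class, 0 of 109 nested and 15.5% of 934 free-standing genes of the TEC class (transcripts awaiting experimental proof) had a count, 0 of 51 and 16.3% of 6848 processed pseudogenes, 0 of 28 and 31.7% of 167 antisense genes, and 0 of 17 and 1.95% of 771 small nuclear RNA genes. Counting over exons alone leaves a gene inside an intron countable, whereas counting over whole genes without regard to strand makes its reads ambiguous between the gene and its host. The library kit was stranded, but the sources used here name neither the feature type nor the strand setting of the counting. The values are therefore called counts of the gene, not of its messenger RNA. Other annotated genes overlap 0.00798 to 12% of each span, so most of every span was free of them.

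Among the adhesion molecules, Opcml, an IgLON protein held to the membrane by a lipid anchor (GRCm38 chromosome 9, 27790775 to 28925410, plus strand), had 6, 22, 6598, 251 and 46 counts in KO libraries 1 to 5. WT libraries 1 to 5 had 2, 3, 0, 1 and 1 counts of it. KO library 3 thus gave 95.3% of the KO counts. Its relative Ntm lies on the same chromosome, on the other strand, with a gap of 69.34 kb between the 2 spans. Ntm had 1, 2, 4, 28 and 122 counts in KO libraries 1 to 5, against 0, 1, 0, 0 and 0 in WT libraries 1 to 5. The library with the most Opcml counts was not the library with the most Ntm counts. Lsamp, the limbic member of the family (chromosome 16, 39984361 to 42181679, plus strand), had 3, 761, 339, 159 and 3618 counts in KO libraries and 1, 2, 0, 3 and 398 in WT libraries. Here WT library 5 exceeded KO libraries 1, 3 and 4 in counts.

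The teneurins, which bind latrophilins across the synapse, split between libraries. Tenm2 had 126, 8, 41, 65 and 1249 counts in KO libraries 1 to 5, and 2, 0, 0, 0 and 1 in WT libraries 1 to 5. Tenm4 was highest in KO library 5 as well, with 628 of its 755 KO counts and 11 WT counts in all. Tenm3 was highest in KO library 3, with 634 of 674, and WT library 4 held 45 of its 50 WT counts. The CSMD genes code for large membrane proteins with CUB and sushi domains. Csmd1 (chromosome 8, 15892537 to 17535586, minus strand) had 23, 3, 1099, 1698 and 233 counts in KO libraries and 3, 8, 4, 0 and 4 in WT libraries. Csmd2 had 8, 9, 27, 49 and 182 counts in KO libraries and exactly 1 count in each of the 5 WT libraries. Csmd3 differed from both, with 99, 20, 575, 445 and 411 counts in KO libraries and 77, 113, 41, 81 and 125 in WT libraries, and was thus seen in all 10.

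In the neurexin family, Cntnap2 is the one gene of the 36 with more counts in WT than in KO, 3307 over the KO libraries and 6316 over the WT libraries. It codes for Caspr2, which gathers potassium channels on myelinated axons (chromosome 6, 45059357 to 47304213, plus strand). Its counts were 7, 285, 1146, 321 and 1548 in KO libraries 1 to 5, and 1521, 3166, 19, 20 and 1590 in WT libraries 1 to 5. WT libraries 1, 2 and 5 stood high and WT libraries 3 and 4 low, so the unevenness was not confined to KO. Cntnap5b had 82, 901, 3407, 15 and 311 counts in KO libraries, against 24, 60, 63, 66 and 67 in WT libraries. Its WT counts were thus even in WT libraries 2 to 5 and lower in WT library 1. Cntnap5a, its close relative 15200 kb away on chromosome 1, had 1, 3, 291, 793 and 681 counts in KO libraries and 3 counts over all WT libraries. Nrxn3, a presynaptic organizer, had 869 KO counts, 778 of them from KO library 5, and 3 counts over the WT libraries.

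**Figure D2:**
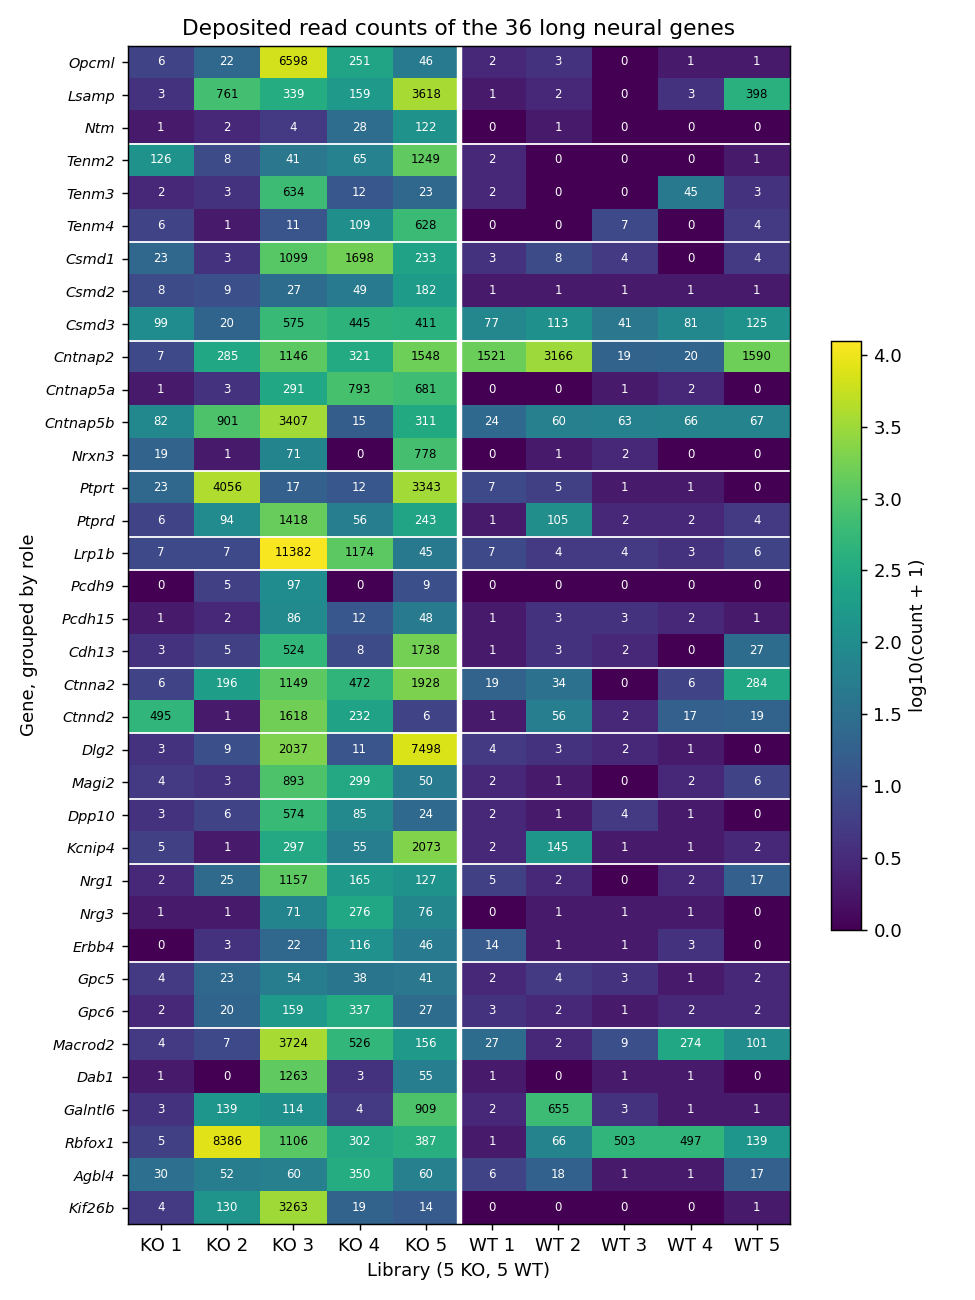
Deposited read counts of each of the 36 genes (rows, grouped by role) in each library (columns, KO left of the white line and WT right of it), with the color on a log10(count + 1) scale. Large counts appear in different genes in different KO libraries, such as 8386 counts of Rbfox1 in KO library 2 and 11382 of Lrp1b in KO library 3.

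Lrp1b, an endocytic receptor of the LDL receptor family (chromosome 2, 40595246 to 42653624, minus strand), had the most KO counts of the 36: 7, 7, 11382, 1174 and 45 in KO libraries 1 to 5. Its WT counts were 7, 4, 4, 3 and 6, so KO libraries 1 and 2 held no more counts than the highest WT library, which was deeper. Ptprt, a receptor tyrosine phosphatase of cell contacts (chromosome 2, 161521990 to 162661147, minus strand), had 23, 4056, 17, 12 and 3343 counts in KO libraries and 7, 5, 1, 1 and 0 in WT libraries. It was high in KO libraries 2 and 5. Ptprd, of the same enzyme class, had 6, 94, 1418, 56 and 243 counts in KO libraries, against 1, 105, 2, 2 and 4 in WT libraries. Its highest library was thus KO library 3, where Ptprt was low.

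Of the cadherins, Cdh13, which lacks the usual intracellular part, had 3, 5, 524, 8 and 1738 counts in KO libraries and 33 over the WT libraries, 27 of them in WT library 5. Pcdh15, known from the tip links of hair cells, had 1 to 86 counts in KO libraries and 1 to 3 in WT libraries. Pcdh9 was the weakest of the 36, with 111 KO counts, 97 of them in KO library 3. It was at 0 in every WT library and in KO libraries 1 and 4 as well. With 3 counts over the WT group taken as the floor, its summed KO count was at least 121-fold higher per library size. This bound covers counting error only, rests mostly on KO library 3 and does not hold for each KO library. The catenins tie cadherins to the cytoskeleton. Ctnna2 had 6, 196, 1149, 472 and 1928 counts in KO libraries and 19, 34, 0, 6 and 284 in WT libraries. Ctnnd2 was the largest of the 36 in KO library 1, with 495, 1, 1618, 232 and 6 counts in KO libraries 1 to 5, against 1, 56, 2, 17 and 19 in WT libraries 1 to 5. KO libraries 2 and 5 lay within the WT counts.

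The postsynaptic scaffold gene Dlg2 (chromosome 7, 90476672 to 92449247, plus strand) had 3, 9, 2037, 11 and 7498 counts in KO libraries, against 4, 3, 2, 1 and 0 in WT libraries. Its summed KO count was 9558 and its summed WT count 10. Magi2, another scaffold, had 893 of 1249 KO counts in KO library 3 and 11 WT counts. The auxiliary subunits of Kv4 potassium channels differed from each other. Dpp10 had 574 of 692 KO counts in KO library 3 and 8 WT counts, while Kcnip4 had 2073 of 2431 KO counts in KO library 5 and 145 of 151 WT counts in WT library 2. In the neuregulin pathway, the ligand gene Nrg1 had 2, 25, 1157, 165 and 127 counts in KO libraries and 5, 2, 0, 2 and 17 in WT libraries. Nrg3, a related ligand, had 425 KO and 3 WT counts, and the receptor gene Erbb4 had 187 KO and 19 WT counts, with 116 in KO library 4 and 14 in WT library 1. Of the glypicans, heparan sulfate proteoglycans of the cell surface, Gpc5 was the most even of the 36 in KO, with 4, 23, 54, 38 and 41 counts against 2, 4, 3, 1 and 2 in WT libraries. Gpc6 had 545 KO and 10 WT counts.

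Rbfox1, a splicing regulator of neurons and muscle (chromosome 16, 5885355 to 7411526, plus strand), had 5, 8386, 1106, 302 and 387 counts in KO libraries, against 1, 66, 503, 497 and 139 in WT libraries. It varied widely in both groups. Macrod2, which removes ADP-ribose from proteins, had 4, 7, 3724, 526 and 156 counts in KO libraries and 27, 2, 9, 274 and 101 in WT libraries. Kif26b, an atypical kinesin also known from kidney development and the shortest of the 36 genes, had 4, 130, 3263, 19 and 14 counts in KO libraries and 1 count over all WT libraries. That is a ratio of 11200 per library size, with a 95% exact interval of 2010 to 442000 that covers counting error only and not the spread between libraries. KO library 3 held 95.1% of these KO counts, and without it the fitted log2 change was 9.91, against 13.19 with all libraries (edgeR). Dab1, the adaptor of reelin signaling, had 1263 of 1322 KO counts in KO library 3 and 3 WT counts. Galntl6, of the family of mucin-type glycosyltransferases, had 3, 139, 114, 4 and 909 counts in KO libraries and 2, 655, 3, 1 and 1 in WT libraries, so 1 library of each group held most of its counts. Agbl4, a carboxypeptidase that trims glutamate chains from tubulin, had 30 to 350 counts in KO libraries and 1 to 18 in WT libraries.

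The KO libraries thus differed from each other in which genes they held. In raw counts, KO library 3 was the highest KO library for 16 of the 36 genes, KO library 5 for 12, KO library 4 for 6, KO library 2 for 2 and KO library 1 for 0. This ranking takes no account of depth: KO library 5 held 3620002 counts in all and KO library 3 held 8652132. Per library size some genes rank otherwise, such as Ptprt, with 4056 counts in KO library 2 and 3343 in the shallower KO library 5. The summed level was highest in KO library 5, at 7937 CPM against 5239 CPM in KO library 3. KO libraries 3 and 5 together gave 75% of all KO counts of the 36 genes. In KO library 2, Rbfox1 alone gave 55.21% of its counts of the 36 genes, and in KO library 1 Ctnnd2 gave 49.75%. For the median gene, 77% of the KO counts lay in 1 library (range 33.8 to 95.5%), and 19 of the 36 genes had at least 75% there. This was not particular to these genes: over the 5766 genes with at least 100 KO counts in all, the median share in 1 library was 94.1%, and over 234 other protein-coding genes of at least 410.1 kb span it was 80.7%. In WT, the median was 74.6% over the 10 of the 36 genes with at least 100 WT counts, against 39.1% over 10478 genes. Across the 36 genes, pairs of KO libraries had a Spearman rho of -0.122 to 0.301 and pairs of WT libraries 0.276 to 0.585, a description over genes that share libraries and depth.

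**Figure D3:**
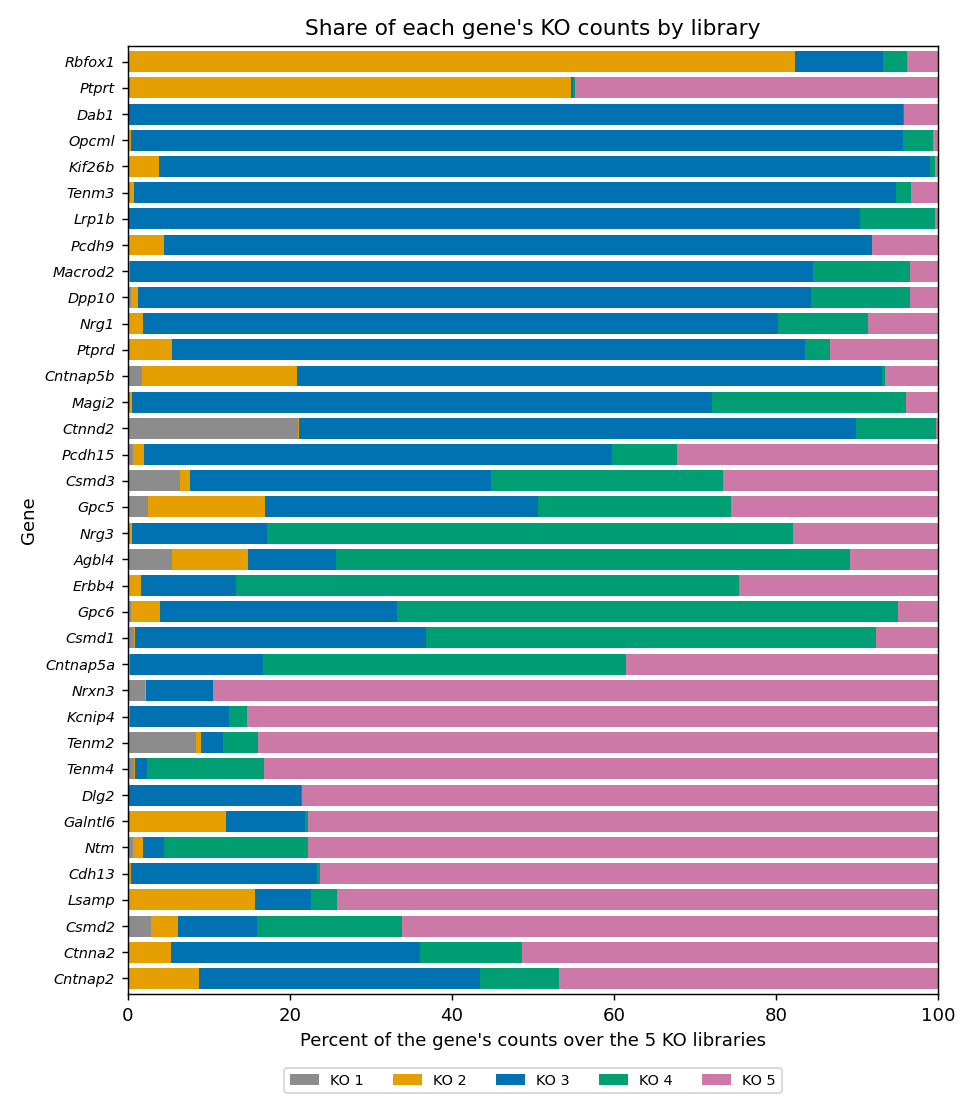
The share of each gene's counts over the 5 KO libraries that came from each KO library, with genes ordered by the library that gave most. Every bar sums to 100%, and 19 of the 36 bars are at least 75% of 1 color.

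KO and WT were compared with edgeR's quasi-likelihood test across all genes, with Benjamini-Hochberg adjustment over the 7490 genes that passed the filter on low counts and a threshold of 0.05. Of those genes 1.5% were higher in KO and 27.1% lower. Of the 36 genes 19 passed the filter and 17 did not. To pass, a gene needed enough counts in 5 or more libraries, so a gene nearly absent from WT passed only through the KO libraries and then had to differ. The count is therefore a description and no support: 18 were higher, 0 were lower, and Cntnap2 did not pass the test. The median log2 fold change was 7.58 for the 19 genes and -0.47 for all genes tested. With size factors of the relative log expression method (RLE) these medians were 8.55 and 0.09, and with library size alone 6.16 and -1.77. Library size alone left 12 of the 19 higher, where 0.654% of all genes tested were. Without the filter, 34 of all 36 genes were higher in KO, where 12.3% of 19014 genes were, and DESeq2 found 26 of the 26 it gave an adjusted p higher, where 12.1% of 12143 were. DESeq2 gave the other 10 a fold change but no p, adjusted or not. In these 10, 74.1% (Lsamp) to 95.3% (Opcml) of the KO counts lay in 1 library, though Dab1, at 95.5%, did get a p. Neither the fit without the filter nor DESeq2 found a lower one, where 15.9% and 21% of the genes tested were lower. RLE factors left 18 of the 19 higher, where 2.58% of all genes tested were, and library size alone found 31.1% of them lower but none of the 19. With KO libraries 3 and 5 left out, 17 of 23 tested were higher, where 3.15% of all genes tested were. Leaving out KO libraries 1 to 5 in turn gave 24, 25, 21, 21 and 19 of the 36 genes higher, where 3.72, 3.56, 3.09, 3.41 and 2.43% of all genes tested were. Leaving out WT libraries 1 to 5 in turn gave 14, 16, 15, 15 and 16, where 1.22, 1.15, 1.13, 1.17 and 1.11% were.

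Effects were large and their errors wide. Opcml had a log2 fold change of 12.26 (SE 2.58, adjusted p = 0.00166, edgeR), with a mean of 161 ± 337 CPM in KO and 0.058 ± 0.0465 CPM in WT (SD, n = 5 each). Ptprt had 12.40 (SE 2.65, adjusted p = 0.00175, edgeR), and Lrp1b 11.42 (SE 2.43, adjusted p = 0.00172, edgeR), with 290 ± 576 CPM in KO and 0.204 ± 0.0682 CPM in WT. Single libraries set the size of these changes: the log2 fold change was 8.94 for Opcml and 8.66 for Lrp1b without KO library 3, and 11.01 for Ptprt without KO library 5. Gpc5 had a smaller change of 6.88 and a smaller error (SE 1.12, adjusted p = 0.00163, edgeR), at 4.96 ± 4.07 CPM in KO and 0.103 ± 0.0488 CPM in WT. Cntnap2 stood at 125 ± 176 CPM in KO and 52.4 ± 53.8 CPM in WT, with a log2 fold change of 2.62 (SE 1.71, adjusted p = 0.304, edgeR). It passed with DESeq2 (adjusted p = 0.04999). No alternative that gave an adjusted p removed the calls of Lrp1b, Ptprt, Opcml, Cntnap5b, Kif26b, Ctnnd2, Tenm2, Nrg1, Agbl4, Csmd2 and Gpc5. Several of these were nearly absent from WT and passed the filter through KO, as Kif26b with 1 WT count in all and Tenm2 with 3, so this is no sign of stability. For Lrp1b, Opcml and Kif26b, DESeq2 gave no p and so could not remove the call. The calls of Rbfox1, Lsamp, Macrod2, Ctnna2, Csmd3, Kcnip4 and Ptprd were lost when certain single libraries were left out. Leaving out the KO library with most of their counts lost 3 of them: Rbfox1 without KO library 2 (adjusted p = 0.0632, edgeR), Lsamp without KO library 5 (0.0836) and Kcnip4 without KO library 5 (0.0635). The other single-library losses came from leaving out a WT library, with edgeR adjusted p-values of 0.0514 to 0.102: for Csmd3 any of the 5, for Rbfox1 any of the 5, for Lsamp library 1, 2, 3 or 4, for Macrod2 1, 2, 3 or 5, for Ctnna2 1, 2 or 4, for Kcnip4 1, 3, 4 or 5, and for Ptprd 1, 3, 4 or 5. With library size alone, 6 of these 7 calls were lost, all but that of Ptprd.

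The groups were also compared gene by gene with an exact permutation test (two-sided) of log2(CPM + 1) over the 10 libraries, for all 19014 genes with any count. In 17 of the 36 genes every KO library lay above every WT library, which was so for 0.631% of all genes. Each of these 17 had the smallest p that the test can give, 0.00794, and an adjusted p over all genes of 0.0414. That smallest p was shared by 3641 of the 19014 genes. Every KO library lay above every WT library in 120 of them and below in 3521. The adjusted p of the 17 depends on that number, most of it from genes lower in KO. The 17 include 9 genes that the filter had left out of the edgeR test, among them Dlg2, Csmd1 and Magi2. Each of these 9 had no more than 3 counts in at least 1 KO library, and its place above WT there rests on library size. Csmd1, for example, had 3 counts in KO library 2 and 8 in WT library 2. With TMM-scaled CPM no gene reached an adjusted p below 0.0508, so 0 of the 17 calls remained there, and 32 of the 36 genes were higher at an unadjusted exact p of at most 0.05, where 2.74% of all genes were. On library size it was 26 of the 36, where 1.93% of all genes were. Of the other 19 genes, 9 were above every WT library in 4 KO libraries, 5 in 3, 4 in 2, and Galntl6 in 1. For Tenm3, for example, KO libraries 1, 2 and 4 held 2, 3 and 12 counts and lay within the WT range of CPM.

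Among other genes nearly absent from WT, the share seen in every KO library was higher in the 300 to 1000 kb class of span than in the 10 to 100 kb class. Protein-coding genes outside the 36 with at most 3 counts in every WT library were grouped by span, and their KO counts were read, which the choice did not use. Of 4266 such genes of 10 to 100 kb, 0.774, 1.38, 7.22, 2.79 and 4.5% had over 3 counts in KO libraries 1 to 5. Of 168 such genes of 300 to 1000 kb, 14.3, 24.4, 69, 42.9 and 60.7% did. Above 1000 kb only 6 such genes remained, and 0, 50, 66.7, 83.3 and 100% of them did. Per megabase (Mb) of span the 300 to 1000 kb class was below the 10 to 100 kb class in KO libraries 1 and 2 and above it in KO libraries 3, 4 and 5. The direction of this comparison depended on the classes set side by side: in KO library 4 genes under 10 kb had 1350 counts per Mb. The summed counts were 20.6, 116, 1300, 320 and 622 per Mb in the 300 to 1000 kb class and 74.1, 240, 848, 200 and 462 per Mb in the 10 to 100 kb class, which gives ratios of 0.278, 0.483, 1.53, 1.6 and 1.35. Per Mb of exon the 300 to 1000 kb class was above the 10 to 100 kb class in all 5, with 1.8, 3.12, 9.97, 10.4 and 8.73 times its density. Of the 36 genes, 12 had at most 3 counts in every WT library, and 5, 6, 12, 9 and 12 of these had over 3 counts in KO libraries 1 to 5, at 13.6, 16.2, 954, 146 and 262 counts per Mb of span. Of these 12 genes 7 span over 1000 kb. Their density was below that of the 300 to 1000 kb class in each KO library, but the 6 other genes above 1000 kb had 1.6, 53.5, 229, 505 and 543 counts per Mb, which is lower in KO libraries 1 and 3 and higher in the others. Single genes can carry such sums, and no test was made. Across the 36 genes themselves, span correlated with the KO count at a Spearman rho of 0.179 to 0.379 in the 5 libraries and exonic length at -0.0689 to 0.209, as a description over genes of the same libraries.

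**Figure D4:**
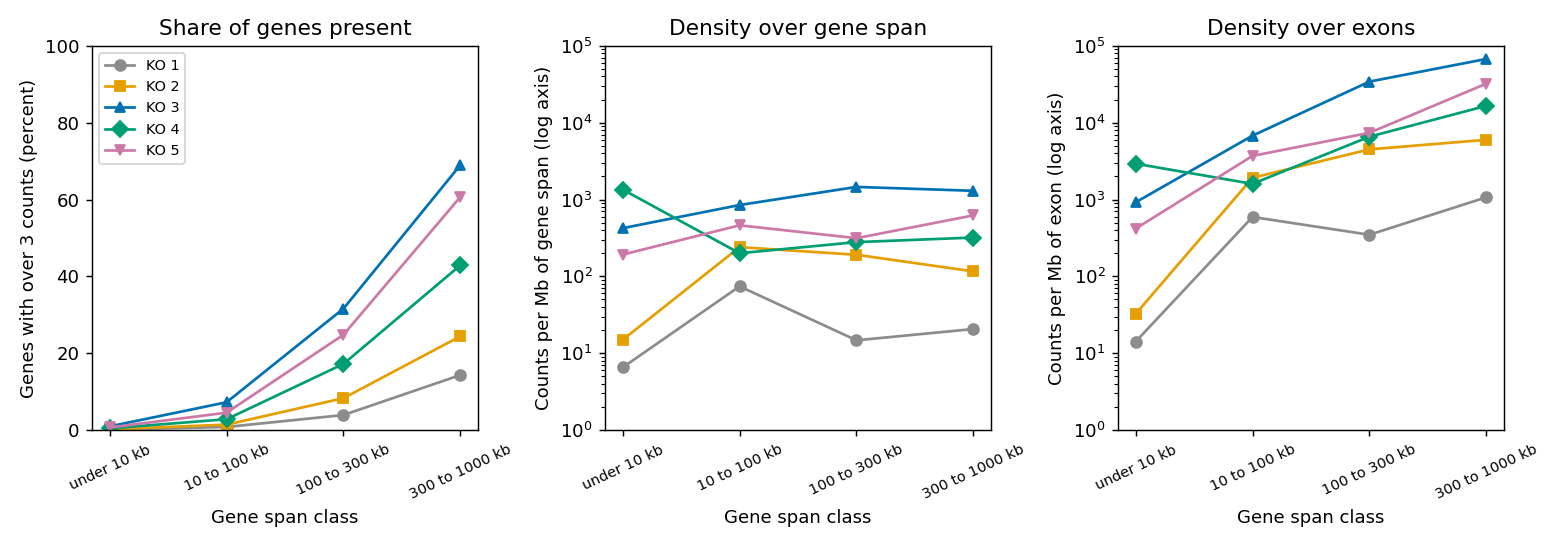
Protein-coding genes outside the 36 with at most 3 counts in every WT library, by span class, in each KO library: the percent of genes with over 3 counts (left), the summed counts per Mb of gene span (middle, log axis) and per Mb of exon (right, log axis). From the 10 to 100 kb class to the 300 to 1000 kb class, density over span changed by 0.278 to 1.6 times and density over exons by 1.8 to 10.4 times.

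All protein-coding genes of at least 300 kb took 7.761, 5.11, 8.932, 4.394 and 10.27% of the counts in KO libraries 1 to 5, against 3.159, 3.779, 2.729, 2.66 and 3.783% in WT libraries 1 to 5. A single locus, Gphn, which codes for the scaffold gephyrin, held 288488 counts in KO library 1. With Gphn left out, the shares were 1.697, 4.56, 8.566, 3.869 and 10.02% in KO libraries 1 to 5, against 2.718, 3.256, 1.899, 2.058 and 3.241% in WT libraries 1 to 5. KO library 1 then lay below every WT library, and it did so for genes of at least 500 kb as well, at 0.403% against 0.6508 to 1.242%. Counts of called genes in the lists that follow stand against 1.5% higher and 27.1% lower over all genes tested, and 0.631% with every KO library above every WT library. As for the 36 genes, long genes near 0 in WT passed the filter only through KO. Of 301 other protein-coding genes at least as long as the shortest of the 36, 29 of 120 tested were higher in KO, 1 was lower and the median log2 fold change was 2.87. Among 30 other very long neural genes, 3 of 5 tested were higher and every KO library was above every WT library for 12. Their summed level ran from 82.6 to 2180 CPM in KO libraries and from 29.9 to 67.6 CPM in WT libraries. Dscam, an adhesion protein of axons, had 16, 10876, 5569, 3 and 75 counts in KO libraries and 660, 89, 165, 310 and 1086 in WT libraries, and its edgeR adjusted p was 0.0387. Of 20 very long genes with other or broad expression, 15 were tested, 7 were higher and 1 lower. Sox6, a transcription factor of cartilage and red cells, had 766, 894, 3212, 213 and 69 counts in KO libraries and 3 over the WT libraries. Of 16 long genes that lymphocytes use, all 16 were tested with edgeR and 0 passed, 1 at an unadjusted p under 0.05, with a median log2 fold change of 1.14. High counts were thus found in long genes in and outside the neural lists, and no difference between these lists was tested.

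Most compact genes that define neurons were at 0 in most libraries. Of the 14 neuron markers checked, 9 were at 0 in every KO library and 8 in every WT library, and Snap25, Syp, Tubb3, Nefl and Th were at 0 in all 10. Over 3 counts were found in 5 of 70 gene and library pairs in KO and 6 of 70 in WT. Rbfox3, which codes for the neuronal antigen NeuN and spans 421.8 kb, is no compact gene. It had 3, 1, 740, 43 and 1 counts in KO libraries, against 0 in each WT library. Stmn2 had 41 counts in KO library 5 and 25 in each of WT libraries 2 and 4, while Uchl1 had 84 counts and Gap43 34 in WT library 1 and 0 in KO. Gad1 had 15 counts in KO library 4, Slc17a7 had 8 in KO library 5, and Nefm had 2 in KO library 5 and 34 in WT library 5. The summed level of the list ran from 0.11 to 85.5 CPM in KO and from 0 to 4.9 CPM in WT, and without Rbfox3 from 0 to 14.1 CPM in KO and from 0 to 4.9 CPM in WT. Of the 9 glial markers, 7 were at 0 in all libraries, Gfap and Sox10 among them. Aldh1l1 had 315 counts in KO library 4 and 0 elsewhere, and Mbp, whose locus is also transcribed in blood cells, had 3 to 4291 counts in KO libraries and 4491 to 7820 in WT libraries.

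Markers of other lung cells were low as well. The 6 epithelial markers summed to 0.304 to 10.2 CPM in KO and 0.0817 to 10.5 CPM in WT, with Sftpc at 0 in every library. Of the 6 endothelial and stromal markers, Cdh5 and Cldn5 were at 0 in all libraries and the sum was 0 to 14.1 CPM in KO and 37.4 to 166 CPM in WT, most of it Pecam1. The 6 red cell genes were higher in KO as a sum, at 107 to 190000 CPM in KO and 9.1 to 25 CPM in WT. Alas2 was at 0 throughout, and all 5 tested genes were called higher in KO (edgeR), though not in each KO library. KO library 1 held most of these counts, and for 3 of the 6 genes every KO library was above every WT library. Bpgm, an enzyme of red cell glycolysis, had 3288, 0, 8, 67 and 1 counts in KO libraries, against 116, 269, 295, 423 and 369 in WT libraries, so KO library 1 alone lay above the WT counts (adjusted p = 0.049, edgeR). The KO library with the most globin counts, library 1, had the lowest level of the 36 long genes. The part of red cell RNA, of depth and of the mixture of RNA in the levels of these genes was not tested.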

How the data were processed

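Total RNA of sorted lung ILC2 (5 KO and 5 WT libraries) was made into libraries with a stranded kit, according to protocols in the labels. The authors deposited raw counts of reads for each gene. STAR 2.6.0c, SAMtools 1.8, HTSeq 0.9.1 and GRCm38 are named in the submitters' processing notes. The sources used here give no annotation release, feature type, strand setting or filter. Groups follow the genotype in the labels. Gene spans and exons come from GENCODE M21 on GRCm38.

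Counts were tested with edgeR 4.0.16 in R 4.3.3 (filterByExpr with a minimum of 10 counts, TMM, quasi-likelihood test, Benjamini-Hochberg over all genes kept, 0.05). The standard error is the log2 fold change divided by the square root of F. Exact permutation tests used Python 3.11.15. DESeq2 1.42.0, other scalings, no filter and leaving out libraries were alternatives. Levels are CPM of library size unless TMM is named. A gene was called present at over 3 counts. Reads carry no molecular identifiers, so intervals and floors cover counting error only.

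The 36 genes, the marker lists and the comparison lists were chosen with earlier results of these data known. Full counts are given for the 12 genes with most KO counts and the 4 with most WT counts, and others are described within their role.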

Additional observations from a re-analysis of the deposited data

Results flagged for a closer look

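In each group of 5 libraries, the gap between the highest or lowest library and the next was set against the whole range. A value was marked where this gap was over 0.71 of the range on the log2(CPM + 1) scale. Chance marks about 1 in 20 groups of normally distributed values, a rate that does not hold for counts near 0. A group with 1 count in 1 library and 0 in the others is always marked. Of 76 groups, 11 were marked, and 10 of these were WT groups of the long genes. A lone high WT library was found for Lsamp (398 counts, WT library 5), Kcnip4 (145 counts, WT library 2), Ptprd (105 counts, WT library 2), Galntl6 (655 counts, WT library 2), Tenm3 (45 counts, WT library 4), Cdh13 (27 counts, WT library 5) and Erbb4 (14 counts, WT library 1). For Kif26b in WT library 5 and Ntm in WT library 2 the lone value was 1 count against 0 elsewhere. Cntnap5b had a lone low value of 24 counts in WT library 1. In KO, Maf had 108 counts in KO library 4 and 0 in the others. No KO group of the 36 genes was marked.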

How the results depend on the processing

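No paired analysis was possible because the labels give the groups no shared replicate numbers. Main counts were 112 genes higher and 2027 lower in KO. Genes higher in KO numbered 193 with RLE size factors, 49 with library size alone, 2345 without a filter on low counts and 1470 with DESeq2. With KO libraries 3 and 5 left out, an alternative chosen after seeing the data, 306 were higher and 3481 lower. Of the 36 genes, 34 were higher without the filter, 17 of 23 tested without KO libraries 3 and 5 (3.15% of all genes tested), and 0 were lower in any of the 15 alternatives. Over all tested genes the median log2 change was 0.093, -1.766, -0.907, 1.242 and -4.194 with RLE, library size alone, no filter, DESeq2 and without KO libraries 3 and 5. Leaving out single libraries gave 82 to 333 genes higher (215 to 333 for KO libraries), 1734 to 3350 lower, 14 to 25 of the 36 genes higher, and medians of -1.825 to -0.339 for all genes and 7.091 to 8.89 for tested members of the 36. Of the refits of single genes among the 36, 238 kept their side of the threshold, 41 lost it, 1 gained it and 0 turned direction. Genes of at least 300 kb took 7.293% of counts in KO and 3.222% in WT. These shares were 10.15 and 5.565% from 200 kb, 2.838 and 0.9872% from 500 kb, 10.16 and 5.233% without mitochondrial and globin genes in the total, 5.742 and 2.634% without Gphn (chosen after seeing the data), and 6.549 to 8.018% and 3.082 to 3.362% without single libraries. The summed level was 1995 to 3927 CPM in KO and 66.98 to 104.6 CPM in WT without single libraries, 914.3 CPM in KO without KO libraries 3 and 5, 4691 CPM in KO and 51.48 CPM in WT with TMM scaling, and 4380 and 142.7 CPM without mitochondrial and globin genes in the total. Pairs of gene and library with a gene present in WT numbered 58 at over 3 counts, 138 at over 0, 38 at over 10 and 29 after thinning. Genes with most KO counts in 1 library numbered 19 at 75% and 5 at 90%. Where a value moved, the cause was not tested beyond what the setting itself changes. With 3620002 counts in the shallowest KO library, low values there rest on few reads.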
